A study of Mus musculus with 12 samples.

Results

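Cytotoxic granule genes were examined in regulatory T cells, a CD4 lineage that holds immune responses in check, by array in NOD.Drak2-/- and NOD mice. The set held 10 genes of the 19505 with a measured row: the proteases Gzma, Gzmb and Ctsw, the pore former Prf1, the granule scaffold Srgn, the granule membrane protein Nkg7, the lectin Lgals1, the chemokines Ccl5 and Xcl1, and the transcription factor Eomes. Each had 1 row on the array, and all 10 entered the fit with no filter on dim genes. The genes were chosen by their genotype difference in these same arrays, because Nkg7 was lower while Gzma and Gzmb leaned higher in NOD.Drak2-/-. Values of that contrast are therefore given for the set as a description, each difference with its SE and no p, and counts past a threshold stand beside those over all genes with nothing read from them.

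NOD.Drak2-/- mice carry a disrupted Stk17b, the gene of the serine/threonine kinase Drak2, on the NOD background, a strain prone to autoimmune diabetes. NOD mice, with the kinase gene intact by their label, were the controls, and there were 6 arrays of single female mice per genotype, all aged 4 to 8 weeks and with no treatment named. Cells of both genotypes were taken from lymph nodes by flow sorting and labelled as positive for CD4 and CD25, negative for CD8 and low for CD45RB. Replicates were numbered 1 to 5 and 7 in NOD.Drak2-/-, and 1 to 6 in NOD. How the allele was made is not given here.

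Cytotoxic lymphocytes store granzymes and perforin in secretory lysosomes. Serglycin, the product of Srgn, holds the granzymes in the granule core, perforin opens the target membrane on release, and granzymes then cleave proteins inside the target cell. Activated regulatory T cells are also known to make granzyme B, and they can use it against effector T cells and antigen-presenting cells. Eomes is a T-box factor best known for driving perforin and granzyme genes in CD8 T cells and natural killer (NK) cells.

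Promoter windows are shown for Nkg7, Gzmb and Gzma, the genes on whose differences the choice of the set turned. The RefSeq table (GRCm38.p6, from 250 bases before to 50 bases after an annotated start) held windows for 7 of the 10 genes, and Ctsw, Lgals1 and Ccl5 had none there. For the windows shown that start is the start of the gene, whereas for Prf1 and the second Srgn window it lies further inside the gene. Each sequence runs 5′ to 3′ on the strand of the gene, and capitals mark matches to any of 6 motifs searched on both strands, none of which overlap here.
Nkg7, chr7:43436888-43437187, plus strand: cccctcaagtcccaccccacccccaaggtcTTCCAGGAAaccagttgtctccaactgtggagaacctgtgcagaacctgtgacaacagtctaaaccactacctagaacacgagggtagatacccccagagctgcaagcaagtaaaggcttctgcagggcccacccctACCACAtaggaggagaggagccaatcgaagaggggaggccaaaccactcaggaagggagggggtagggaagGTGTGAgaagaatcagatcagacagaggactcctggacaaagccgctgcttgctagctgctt
Gzmb, chr14:56262285-56262584, minus strand: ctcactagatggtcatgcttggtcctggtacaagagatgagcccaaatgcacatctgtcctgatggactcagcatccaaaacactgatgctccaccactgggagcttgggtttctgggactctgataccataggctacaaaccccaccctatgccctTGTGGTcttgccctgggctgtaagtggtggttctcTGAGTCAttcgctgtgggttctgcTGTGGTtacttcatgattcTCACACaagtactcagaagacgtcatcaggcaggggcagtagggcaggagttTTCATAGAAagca
Gzma, chr13:113100932-113101231, minus strand: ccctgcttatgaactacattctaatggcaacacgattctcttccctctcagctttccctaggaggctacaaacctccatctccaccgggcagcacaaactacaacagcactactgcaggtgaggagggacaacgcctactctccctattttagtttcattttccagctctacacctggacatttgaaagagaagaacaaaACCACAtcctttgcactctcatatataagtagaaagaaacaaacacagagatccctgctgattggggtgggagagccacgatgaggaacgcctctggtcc

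The Runx core TGTGGT, or its complement ACCACA, was found in 6 of the 8 windows of these 7 genes, of which Srgn has 2 and the others 1 each, and in 16.8% of the 32851 promoter windows of the table. Nkg7 held it 83 bases upstream of its start, Gzma 50 bases upstream, and Gzmb at 93 and 34 bases upstream. The T-box core TCACAC, or GTGTGA, was found in 3 of the 8 windows and in 14.5% of all windows. In Nkg7 it lay 12 bases upstream, in Gzmb 15 bases upstream and in Xcl1 187 bases upstream. The AP-1 motif TGANTCA (7.81% of windows) was met only in Gzmb among these genes, 58 bases upstream. The STAT motif TTCNNNGAA (8.30% of windows) was met in Nkg7 and Gzmb, the ETS core CCGGAA (14.9%) in 1 Srgn window, and the CRE motif TGACGTCA (1.79%) in none of the 8. These matches describe letters in the windows and say nothing of binding.

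Array medians over all genes lay between 5.18 and 5.34 (log2), and no counts underlie array values, so the number of arrays limits the precision. Stk17b ran from 9.97 to 10.36 in NOD.Drak2-/- and from 10.21 to 10.80 in NOD, so its signal was kept in both genotypes. The position of its probes relative to the disrupted part is not given, and the values cannot check the genotype of any one array. Rows of antigenomic probes, which match no mouse sequence, served as a background floor, and each array's value was set against its own brightest such row. That row lay at 6.52 and 6.77 in NOD.Drak2-/- replicates 1 and 2, between 5.55 and 6.07 in the other 4 NOD.Drak2-/- arrays, and between 5.51 and 6.06 in NOD. Background probes brighten with their GC content, so the brightest row is a strict floor.

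Of the measured regulatory T cell markers, 8 of 9 had a mean above background, as did 7 of 7 T cell markers. Cd4 ran from 9.68 to 10.15 in NOD.Drak2-/- and from 9.32 to 10.04 in NOD, and Cd3d, a T cell receptor chain, averaged 11.22 in NOD.Drak2-/- and 11.35 in NOD. Izumo1r, Ctla4 and Ikzf2, which regulatory T cells express strongly, were above background on all 12 arrays. The exception was Il2ra, which encodes CD25, a marker of the label itself. It was above background on 0 of 12 arrays, from 4.59 to 5.49 in NOD.Drak2-/- and from 4.19 to 5.28 in NOD, so this row does not show the CD25 of the label. Of all genes, 58.3% had a mean below the brightest background row. Why Il2ra read low was not tested. Foxp3, the defining factor of these cells, had no row named here.

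**Figure D1:**
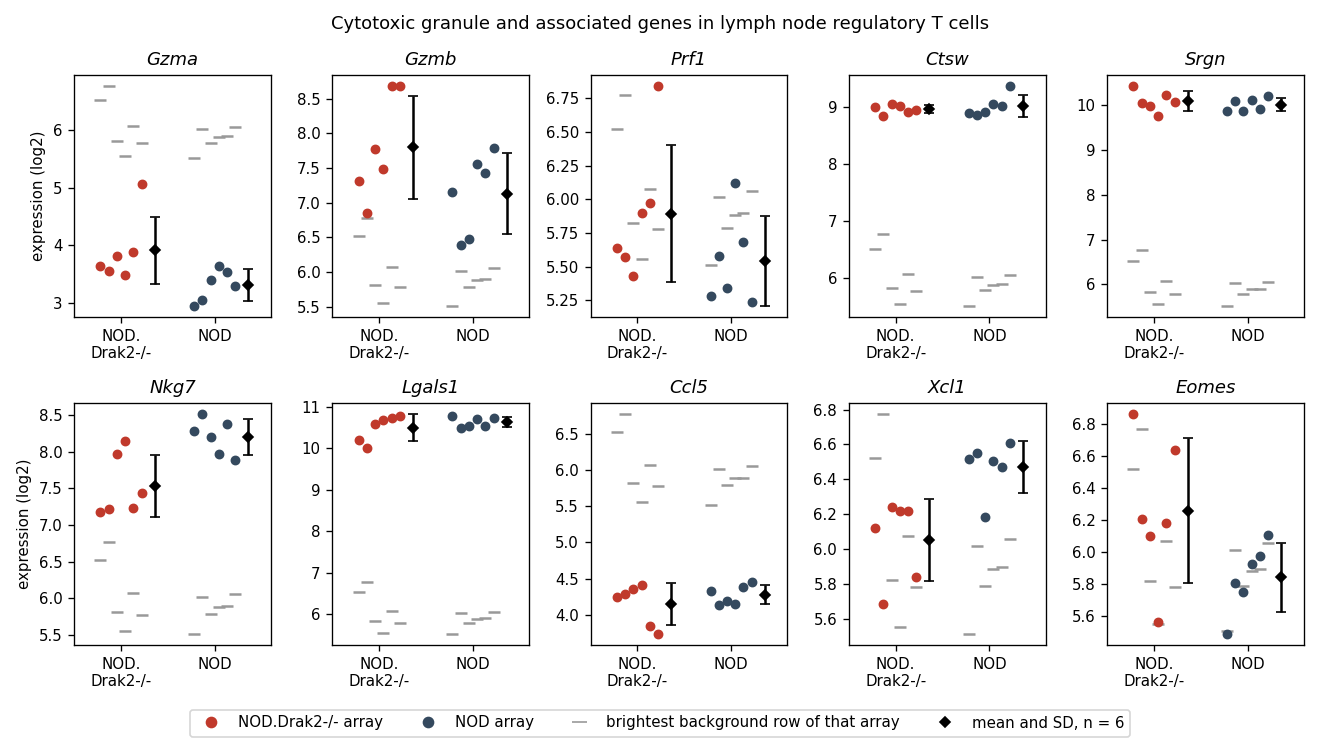
Expression (log2, y axis) of each of the 10 genes in the 6 NOD.Drak2-/- arrays (red) and the 6 NOD arrays (dark blue), with the mean and SD as a diamond and bar and each array's own brightest background row as a grey dash. Gzma and Ccl5 lay below their grey dashes on all 12 arrays, while Gzmb, Nkg7, Ctsw, Srgn and Lgals1 lay above theirs on all 12.

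Among the effector proteases, Gzmb leaned higher in NOD.Drak2-/- cells and Ctsw stood nearly level. Gzmb, which encodes granzyme B, a protease that cleaves after aspartate and activates caspases, had a lowest, median and highest value of 6.85, 7.63 and 8.68 in NOD.Drak2-/-, against 6.39, 7.29 and 7.79 in NOD. Replicates 5 and 7 of NOD.Drak2-/-, at 8.67 and 8.68, lay above all 6 NOD arrays, the other 4 lay within the NOD range, and 2 NOD arrays lay below every NOD.Drak2-/- array. It averaged 7.80 ± 0.75 in NOD.Drak2-/- and 7.13 ± 0.58 in NOD (log2, SD, n = 6 each), a log2 difference of 0.66 (SE 0.32), or 1.58-fold. Leaving out replicate 7 of NOD.Drak2-/- gave 0.49, and leaving out replicates 1 and 2, whose background rows were brightest, gave 1.02.

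Gzma, which encodes the tryptase granzyme A, was not above background on any of the 12 arrays, and so has no fold here. It ran from 3.49 through a median of 3.74 to 5.07 in NOD.Drak2-/-, and from 2.94 through 3.35 to 3.63 in NOD. In NOD.Drak2-/- 4 of the 6 arrays lay above every NOD array, and a single array, replicate 7, stood far above the rest at 5.07. The mean was 3.91 ± 0.59 in NOD.Drak2-/- (SD, n = 6), 3.68 ± 0.17 there without replicate 7, and 3.31 ± 0.27 in NOD (SD, n = 6). All of these lay under the floor, replicate 7 included, whose own brightest background row was 5.78.

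Ctsw, which encodes cathepsin W, a cysteine protease of cytotoxic lymphocytes, ran from 8.86 through 8.98 to 9.06 in NOD.Drak2-/-, and from 8.87 through 8.97 to 9.38 in NOD. The groups overlapped almost wholly. The log2 difference was -0.06 (SE 0.11), and its sign turned when NOD replicate 6, the highest array, was left out (0.02).

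Srgn, the scaffold gene, was above background on all 12 arrays, while Prf1, the pore gene, mostly was not. Prf1, which encodes perforin, ran from 5.43 through 5.77 to 6.84 in NOD.Drak2-/-, and from 5.23 through 5.46 to 6.12 in NOD. It exceeded background on 2 NOD.Drak2-/- arrays, replicates 4 and 7, and on 1 NOD array, replicate 4, so most of its values are bounds only. Replicate 7 of NOD.Drak2-/- was again the highest array, and was the only one above all NOD arrays. The log2 difference of 0.35 (SE 0.21) came to 0.16 without that array. Over replicates 1 to 5 it was 0.10, with or without the replicate number as a block. Srgn, the serglycin core protein, ran from 9.77 through 10.06 to 10.43 in NOD.Drak2-/- and from 9.86 through 10.01 to 10.20 in NOD, with a difference of 0.08 (SE 0.12). The Srgn groups overlapped, with the NOD arrays lying inside the NOD.Drak2-/- range.

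Nkg7 averaged lower in NOD.Drak2-/-, where Gzmb averaged higher. Nkg7 encodes a small membrane protein of cytotoxic granules that is needed for efficient granule release by NK and CD8 T cells. It ran from 7.18 through 7.34 to 8.14 in NOD.Drak2-/-, against 7.88 through 8.24 to 8.51 in NOD. In NOD.Drak2-/- 4 of the 6 arrays lay below all NOD arrays, and replicates 3 and 4, at 7.97 and 8.14, lay within the NOD range. It averaged 7.53 ± 0.42 in NOD.Drak2-/- and 8.20 ± 0.24 in NOD (SD, n = 6 each), a log2 difference of -0.67 (SE 0.18), or 1.59-fold lower. The difference stayed between -0.79 and -0.60 when any 1 array was left out, and was -0.51 without the 2 arrays of brightest background. These are bulk samples, in which fewer cells that make Nkg7 and less of its RNA per cell cannot be told apart, and the same holds for each gene described here.

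Lgals1, a secreted galectin linked to suppression by regulatory T cells, had a median of 10.64 and a highest value of 10.79 in NOD.Drak2-/-, with its lowest array 0.79 below the highest, and ran from 10.50 through 10.62 to 10.77 in NOD. Replicates 1 (10.19) and 2 (the lowest) of NOD.Drak2-/- lay below every NOD array, and the other 4 lay between 10.59 and 10.79. The log2 difference was -0.13 (SE 0.14) over all arrays and 0.07 without those 2, which were also the arrays with the brightest background rows. Whether background had a part in the low values was not tested.

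Of the secreted chemokines, Xcl1 averaged lower in NOD.Drak2-/- and Ccl5 was at background. Xcl1, the ligand of the receptor on cross-presenting dendritic cells, ran from 5.69 through 6.17 to 6.24 in NOD.Drak2-/-, and from 6.18 through 6.51 to 6.61 in NOD. The groups touched at 1 NOD array, replicate 3, and the other 5 NOD arrays lay above every NOD.Drak2-/- array. The log2 difference was -0.42 (SE 0.12). Xcl1 was above background on 4 NOD.Drak2-/- and 6 NOD arrays, so the NOD.Drak2-/- mean includes values that are bounds. Those not above it were NOD.Drak2-/- replicates 1 and 2, at 6.12 and 5.69, whose floors of 6.52 and 6.77 were the brightest of all arrays. Ccl5, a chemokine that draws T cells and other leukocytes, was above background on 0 of 12 arrays and ran from 3.73 through 4.27 to 4.41 in NOD.Drak2-/- and from 4.13 through 4.26 to 4.45 in NOD.

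Eomes leaned higher in NOD.Drak2-/-, close to background. It ran from 5.57 through 6.19 to 6.86 in NOD.Drak2-/-, and from 5.49 through 5.87 to 6.11 in NOD. In NOD.Drak2-/- 4 of the 6 arrays lay above all NOD arrays, replicate 3 lay just under the highest NOD array, and replicate 4 lay near the bottom of the NOD range. It was above background on 5 NOD.Drak2-/- and 3 NOD arrays. The log2 difference was 0.42 (SE 0.18), and 0.28 without the 2 arrays of brightest background.

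**Figure D2:**
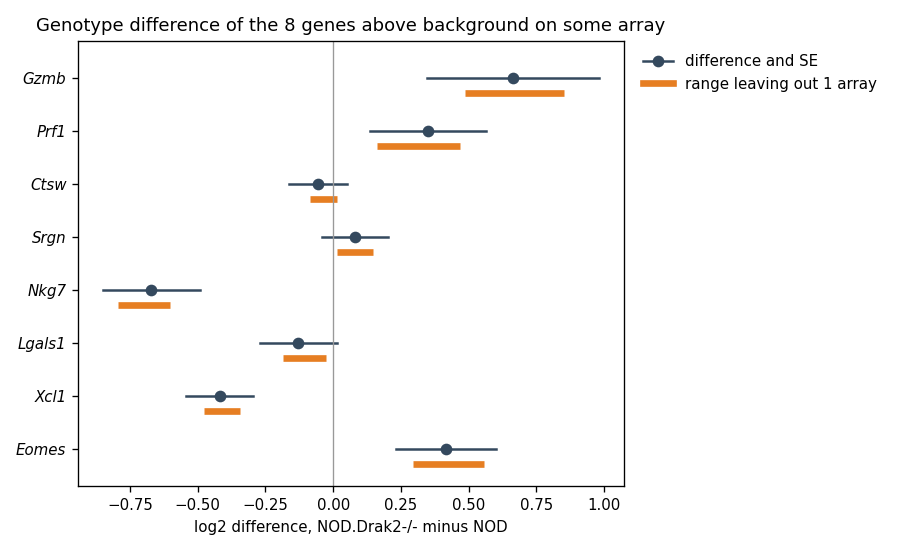
Log2 difference, NOD.Drak2-/- minus NOD (x axis), of the 8 genes that were above background on some array, with its SE to either side (dark line) and the range of the difference over the 12 fits that each left out 1 array (orange bar). Of the 8 genes, 7 kept the sign of their difference in each of those fits, and the range for Ctsw crossed 0.

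Over the set, 5 differences were positive and 5 negative, with a median of 0.01, beside a median of -0.02 and 45.9% positive differences over all 19505 genes. At an adjusted p of 0.05 in limma, 0 of the 10 genes passed, where 0.0205% of all genes did (4 genes). At an unadjusted p under 0.05 there were 4 of the 10, where 9.43% of all genes were. The test of each gene without moderation passed 0 of all 19505 genes after adjustment, so its 0 of the 10 had to follow. The arrays of the 2 genotypes were fully apart for 0 of the 10, where 0.513% of all genes were apart. Nothing is read from these counts, since the contrast chose the genes.

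The choice of the genes used the genotype difference and not how far arrays of the same genotype differed. The same arrays give both, and genes of wide spread show large differences of means more readily. The ranks below are therefore a description and not independent of the choice. Gzmb spanned 2.29 log2 units over the 12 arrays, and its SD within genotypes (0.67) exceeded that of 98.9% of the 2247 genes whose mean lay within 0.5 of its own. Gzma (0.46) exceeded 96.6% of 3638 such genes, in the background range, but rested on 1 array: without NOD.Drak2-/- replicate 7 it was 0.23 and exceeded 41.6%. Lgals1 (0.25) exceeded 89.0%, Prf1 (0.43) 82.5% and Nkg7 (0.34) 77.6% of theirs, with Prf1 at 49.3% and Nkg7 at 82.3% without that array. Ctsw (0.14) and Xcl1 (0.20) were among the steadier genes, exceeding 13.8% and 14.0%. Eomes stood at 67.8%, Srgn at 60.5% and Ccl5, at background, at 31.0% (15.7% without replicate 7). Gzmb, which stood at 98.1% without replicate 7, thus varied more between arrays of one genotype than most genes of its level, and Ctsw less than most. Each array is of a single mouse, so differences between mice and between arrays cannot be told apart.

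Each pair of the 10 genes was compared after the genotype mean had been subtracted, over the 12 arrays. Of 45 pairs, 0 passed a two-sided permutation test within genotypes (100000 draws, Benjamini-Hochberg adjusted over the 45 pairs) by Pearson or Spearman correlation. Unadjusted, 8 and 6 pairs had a p under 0.05. The share over all gene pairs was not computed, so nothing is read from these counts. The 3 smallest p-values by Pearson correlation belonged to Srgn with Eomes, Gzmb with Lgals1 and Prf1 with Ccl5. For Srgn and Eomes, r was 0.81 (permutation p = 0.0087, adjusted p = 0.15) and rho 0.77 (p = 0.0086, adjusted p = 0.129), and r came to 0.46 without NOD.Drak2-/- replicates 1 and 4, the arrays farthest out in Srgn. Within NOD.Drak2-/- alone r was 0.85 and within NOD 0.70. Among all genes above background, 3.59% had a correlation with Srgn at least as strong as that of Eomes.

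Gzmb and Lgals1 had r = 0.77 (permutation p = 0.0102, adjusted p = 0.15) and rho = 0.80 (p = 0.00526, adjusted p = 0.129), with r of 0.85 in NOD.Drak2-/- and 0.67 in NOD. Without NOD.Drak2-/- replicates 2 and 7, the arrays farthest out in Gzmb, r was 0.62. Prf1 and Ccl5 ran opposite to each other, with r = -0.73 (permutation p = 0.0113, adjusted p = 0.15) and rho = -0.68 (p = 0.0305, adjusted p = 0.281), and r = -0.48 without NOD replicate 4 and NOD.Drak2-/- replicate 7. Both of these genes were at or near background. Among all genes above background, 1.28% were tied to Gzmb at least as strongly as Lgals1, and 0.443% to Prf1 at least as strongly as Ccl5.

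Gzma was set beside Gzmb and Prf1 after the values had been seen. With Gzmb its r was 0.63 (permutation p = 0.0294, adjusted p = 0.198) and rho 0.60 (p = 0.0441, adjusted p = 0.281). With Prf1 r was 0.82 (permutation p = 0.0166, adjusted p = 0.15) and rho 0.58 (p = 0.054, adjusted p = 0.281). Leaving out NOD replicate 4 and NOD.Drak2-/- replicate 7 brought the r with Prf1 to 0.22 and that with Gzmb to 0.47, so the relation with Prf1 rested on those 2 arrays.

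**Figure D3:**
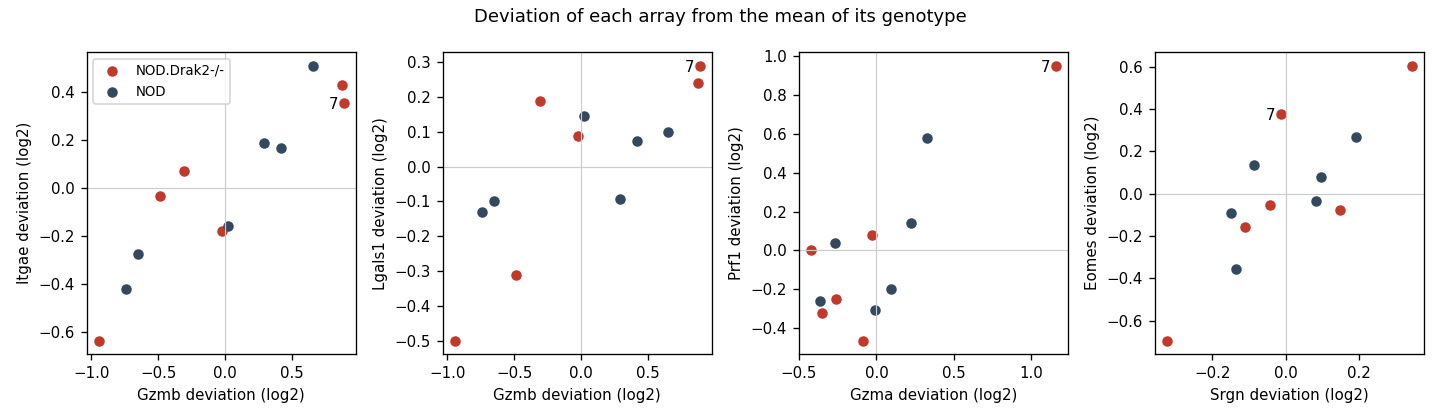
Deviation of each array from the mean of its genotype (log2) for Gzmb against Itgae, Gzmb against Lgals1, Gzma against Prf1, and Srgn against Eomes, with NOD.Drak2-/- arrays in red, NOD arrays in dark blue and NOD.Drak2-/- replicate 7 marked. Itgae was picked for its high correlation with Gzmb on these same arrays, so the common slope of that panel follows from the choice. The Gzma and Prf1 panel is stretched by replicate 7.

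The genes whose deviations were most like those of the 3 leading members were named from the 8128 genes with a mean above background, as a description over the 12 arrays, which share their normalization. For Gzmb these were Acadm, a mitochondrial fatty acid dehydrogenase (r = 0.93), Itgae, the integrin chain CD103 that marks a subset of effector regulatory T cells (0.91), Gpalpp1 (0.90), Acaa2, a thiolase of mitochondrial fatty acid oxidation (0.90), and the peptidase gene Cndp2 (0.90). Itgae had r = 0.89 with Gzmb within NOD.Drak2-/- and 0.95 within NOD, but it was picked on these same arrays, so high values in both follow from the choice. It ran from 7.05 to 8.11 in NOD.Drak2-/- and from 7.20 to 8.13 in NOD. Between the genotypes Itgae itself had a log2 difference of 0.06 (SE 0.19, 95% interval -0.34 to 0.46, adjusted p = 0.934 in limma).

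For Nkg7 the 5 genes were Plac9b (r = 0.94), the ribosomal RNA methyltransferase gene Mettl5 (0.93), the G protein subunit gene Gng10 (0.92), Cnot1, the scaffold of the mRNA deadenylase complex (0.92), and Tmem64 (0.92). None of the other 9 members was among them, but Gzma, Prf1 and Ccl5, with means below background, were not among the 8127 genes compared. Absence from the 5 most alike of so many genes says nothing of how the members relate to Nkg7. For Gzma they were the translation factor gene Eif2b3 (r = 0.95), the autophagy gene Atg5 (0.93), Vat1 (0.91), the F-box gene Fbxo38 (0.89) and the proton pump gene Atp6v0a1 (0.89). Gzma was under the floor on all 12 arrays, so these values describe signal in the background range, and without NOD.Drak2-/- replicate 7 the 5 correlations lay between 0.69 and 0.92. Nkg7 ran against 2 members, Srgn (r = -0.73) and Eomes (r = -0.67), at adjusted p-values of 0.15 and 0.263 in the same permutation test. Among all genes above background, 9.57% and 16.4% had a correlation with Nkg7 of at least those sizes, so ties of that strength were common for this gene.

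Markers of other cells that make granule proteins were read beside these values. Cd8b1, a chain of the CD8 receptor, was above background on all 12 arrays, from 7.23 to 7.87 in NOD.Drak2-/- and from 7.003 to 7.54 in NOD, whereas Cd8a, the other chain, was above background on 0 of 12. Of the 9 measured NK cell markers, 0 were above their array's background on any array. The defining NK marker Ncr1 ran from 3.07 to 3.65 in NOD.Drak2-/- and from 3.09 to 3.69 in NOD. The summed level of the 9 NK markers ran from 30.3 to 33.4 in NOD.Drak2-/- and from 29.7 to 32.3 in NOD, and that of the 2 CD8 markers from 11.9 to 13.1 in NOD.Drak2-/- and from 11.7 to 12.9 in NOD. With the mean of these 11 CD8 and NK markers as a covariate, the log2 difference was 0.78 for Gzmb (0.66 without it) and -0.60 for Nkg7 (-0.67 without it). Of the 11 markers, 10 were above background on no array. The part of such cells in the granule gene values was therefore not tested by that fit.

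Most of the markers listed for other cell types had a mean below background. Of 10 myeloid and dendritic markers 0 had a mean above background (summed level 42.5 to 46.1 in NOD.Drak2-/- and 42.5 to 45.6 in NOD), and Lyz2 was the brightest. Of 7 measured B cell markers 1 did, Cd79b, and 4 were above background on some array. Their sum ran from 32.8 to 40.0 in NOD.Drak2-/- and from 34.2 to 36.7 in NOD. Cd79b differed by 0.48 (SE 0.13, adjusted p = 0.436 in limma), and of the 7 differences 3 were positive and 4 negative. Of 3 measured gamma-delta T cell markers, Sox13 had a mean above background and 2 were above it on some array. The sums were 15.1 to 17.5 in NOD.Drak2-/- and 16.3 to 17.0 in NOD. Their part in the granule gene values was not tested either.

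**Figure D4:**
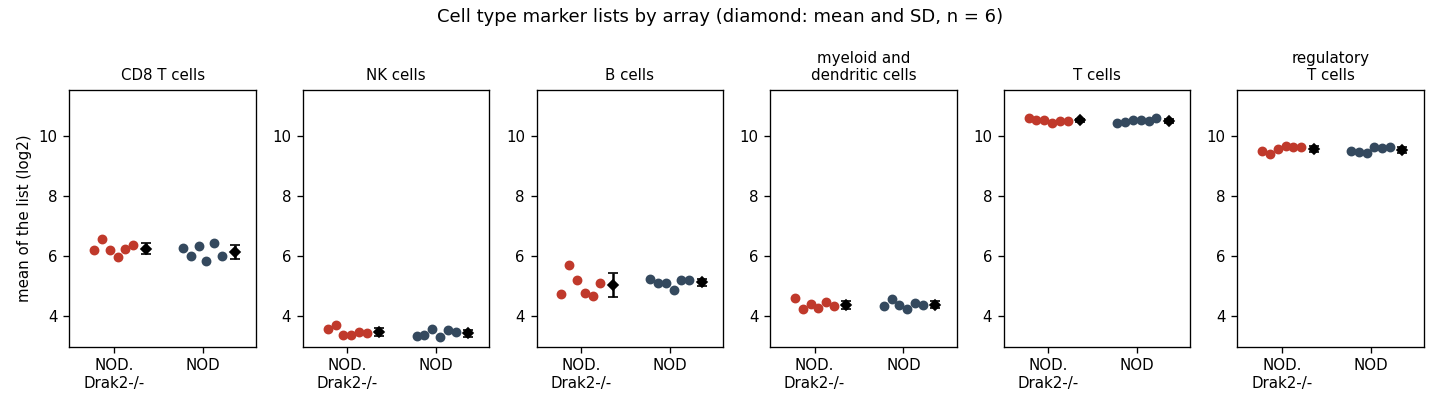
Mean of each marker list per array (log2, y axis) in NOD.Drak2-/- (red) and NOD (dark blue), with the mean and SD (n = 6) as a diamond and bar. The NK list averaged 3.495 in NOD.Drak2-/- and 3.44 in NOD, the CD8 list 6.25 in NOD.Drak2-/- and 6.15 in NOD, and the T cell list 10.50 in NOD.Drak2-/- and 10.49 in NOD.

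Genes of the same machinery, listed apart from the 10 members, were read from the same fit. Of 100 listed genes 88 were measured. None of the 88 passed over all genes in limma, where 0.0205% of all genes did. The test without moderation passed no gene at all, so it adds nothing here. Of the 88, 8 (9.09%) were at an unadjusted p under 0.05, near the 9.43% of all genes. Of these 8, 5 were on the list of transcription factors. The other granzymes (6 of 8 measured) had a median difference of -0.14, with 2 positive and 4 negative. Gzmn and Gzmf, with the smallest p-values there (adjusted p = 0.469 and 0.535), were above background on no array, so no fold is given.

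Among release and processing genes none passed the adjusted threshold, and differences went both ways. Genes of granule exocytosis (16 of 17 measured) had a median of 0.02, with 9 positive and 7 negative. Rab27a, the GTPase that docks granules at the membrane, ran from 7.77 to 8.31 in NOD.Drak2-/- and from 7.16 to 8.14 in NOD, with a difference of 0.33 (SE 0.17, adjusted p = 0.545 in limma) and 6 of 6 NOD.Drak2-/- arrays above the NOD mean. Lyst, the lysosome trafficking regulator, differed by 0.25 (SE 0.18, adjusted p = 0.659). Granule proteases and granzyme inhibitors (11 of 13 measured) had a median of -0.05, with 4 positive and 7 negative. Ctsh was above background on no array (adjusted p = 0.494), and Ctsl on 1 NOD array only (adjusted p = 0.601), so no fold is given for either.

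Synthesis of the sugar chains that serglycin carries (12 of 13 genes measured) had a median of 0.05, with 10 positive and 2 negative. Its genes of smallest p, Chst13 and B3galt6 (adjusted p = 0.674 and 0.71), were above background on no array. The other galectins (7 genes) had a median of 0.02, with 5 positive and 2 negative. Lgals9, which encodes galectin 9, ran from 9.41 to 9.61 in NOD.Drak2-/- and from 8.87 to 9.63 in NOD, a difference of 0.22 (SE 0.12, adjusted p = 0.586), and Lgals4, near background, differed by 0.35 (SE 0.16, adjusted p = 0.519). Chemokines of activated lymphocytes and their receptors (8 of 9 measured) had a median of -0.07, with 3 positive and 5 negative, and 0 of the 8 had a mean above background. The smallest p-values were those of Ccr1 and Ccl9 (adjusted p = 0.63 for each).

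Transcription factors of cytotoxic lymphocytes (12 of 16 measured) had a median of 0.07, with 7 positive and 5 negative, and none passed the adjusted threshold. Of the 12, 5 were at an unadjusted p under 0.05 in limma (2 higher, 3 lower), where 9.43% of all genes were. The list was drawn up with earlier results known, so nothing is read from this count. Nfil3, needed for NK cell development, ran from 7.48 to 8.63 in NOD.Drak2-/- and from 8.26 to 8.93 in NOD, a difference of -0.61 (SE 0.19, adjusted p = 0.469). Runx3, which directs the CD8 lineage and cytotoxic genes, ran from 8.57 to 9.33 in NOD.Drak2-/- and from 7.73 to 8.94 in NOD, a difference of 0.52 (SE 0.19, adjusted p = 0.483), with 6 of 6 NOD.Drak2-/- arrays above the NOD mean. Killer receptors and death ligands (16 of 17 measured) had a median of -0.04, with 6 positive and 10 negative. Ifng, the cytokine interferon gamma, ran from 4.09 to 6.37 in NOD.Drak2-/- and from 5.41 to 6.17 in NOD. It was above background on no NOD.Drak2-/- array and 3 NOD arrays (adjusted p = 0.551), so most of its values are bounds and no fold is given. Its highest value was nonetheless in NOD.Drak2-/-, where the floors of replicates 1 and 2 were 6.52 and 6.77, so these calls depend on the floor. Cx3cr1 was above background on none (adjusted p = 0.535).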

How the data were processed

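Expression was measured on 12 one-colour arrays, 6 per genotype, from 125 ng of RNA each, per the labels' protocols. The deposited values are on a log2 scale, and the authors' tools were RMA (background correction, normalization between arrays and probe summary) and oligo, per the submitters' processing notes, with versions and genome build not given in the sources used here. Rows with exactly 1 gene symbol (19572) were kept, the brightest per gene, leaving 19505 genes. The genotypes were compared with lmFit and eBayes of limma (version 3.58.1, R 4.3.3), with no covariate, Benjamini-Hochberg adjustment over all 19505 genes and a threshold of 0.05. Alternatives were median centring, a filter on dim genes, the mean of all rows, no moderation, a trend, the replicate block, a marker covariate and leaving out each array. Correlations used numpy 2.4.6. The members, lists, motifs and tests were chosen with earlier results of these data known. The text names all members, the 2 genes of smallest p in each related list, the brightest or defining markers, and the 5 most alike genes of Nkg7, Gzma and Gzmb. Same-numbered arrays of the 2 genotypes did not deviate together (r between -0.18 and 0.09), and the labels give no pairing.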

Additional observations from a re-analysis of the deposited data

Results flagged for a closer look

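Over the 10 genes and 7 marker lists, 34 groups of 6 arrays were examined for an array far from the others, and chance alone sets about 5% of groups apart in this way. In NOD.Drak2-/-, replicate 7 stood above the other 5 arrays for Gzma, at 5.07, under its own background floor. In NOD, replicate 3 stood below the other 5 arrays for Xcl1, at 6.18.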

How the results depend on the processing

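The number of genes past the threshold over all genes was 4, and 1 to 2 when any single array was left out. It was 0 with the replicate block (replicates 1 to 5), 2 over the same arrays without the block, 0 without moderation, 1 with the CD8 and NK marker mean as covariate (10 of its 11 markers were above background on no array), and 2 without the 2 NOD.Drak2-/- arrays of brightest background. The counts of 0 for the 10 members, the 88 related genes and the 45 pairs stayed at 0 under each alternative run for them. With the replicate block and without moderation 0 of all genes passed, so the counts of 0 for members and related genes had to follow there. For the pairs, the block left 1 difference per replicate number, too few for a small number of pairs to pass after adjustment. No member difference moved by more than its SD within genotypes. The sign turned for Ctsw in 4 of 19 alternatives (-0.09 to 0.02) and for Lgals1 in 1 of 19 (-0.19 to 0.07). Nkg7 ran from -0.79 to -0.51, Xcl1 from -0.48 to -0.34, Eomes from 0.28 to 0.56, Gzmb from 0.49 to 1.02 and Srgn from 0.01 to 0.15. Prf1 ran from 0.10, over replicates 1 to 5 with or without the block, to 0.49. The comparisons without the block over arrays 1 to 5, without the arrays of brightest background, the counts under the marker covariate, and the spreads and Gzma correlations without NOD.Drak2-/- replicate 7 were chosen after seeing the data, and the cause of the changes was not tested. Signal near background limits Gzma, Ccl5, Prf1, Eomes and Xcl1.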
